A study of Mus musculus with 6 samples.

Results

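The 10015 peaks described here are those of Cell Signaling replicate 1 alone, 1 of the libraries in which the histone mark H3K27ac was mapped in mouse alveolar macrophages (AMs). They were chosen by position: of the 56175 peaks of this library on chromosomes 1 to 19 and X, they are the 17.8% that share no base with any of the 49139 peaks of Cell Signaling replicate 2 or the 36364 peaks of the Active Motif library. A total of 10047 peaks lacked a partner in replicate 2, and 32 of these were left out because they overlapped an Active Motif peak. AMs were recovered by bronchoalveolar lavage from WT C57BL/6J mice aged 9 wk and purified by FACS. The mark was profiled by HT-ChIPmentation, a form of ChIP-seq in which Tn5 transposase adds adapters to chromatin while it is still held by the antibody. The series has 6 samples: 2 libraries made with a Cell Signaling antibody, 1 made with an Active Motif antibody, and 3 inputs, and the peak lists of the 3 antibody libraries were used here. Nothing in the labels says whether the Cell Signaling replicates came from separate mice, and antibody, run and depth cannot be told apart between the Cell Signaling and Active Motif libraries. Cells, preparation, run and depth cannot be told apart between the 2 Cell Signaling replicates either, since each is 1 library. Because every one of these peaks was called in a single library, each value below is a single measurement without a replicate, and shares are given with 95% Wilson intervals, which cover counting error only.

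H3K27ac is laid down by the acetyltransferases p300 and CBP on nucleosomes at active promoters and enhancers, and genes that define a cell type are often surrounded by broad runs of it. AMs live in the airspace against the alveolar epithelium, where type I cells form the gas-exchange surface and type II cells make surfactant. The conducting airways are lined by secretory (club and goblet) cells and ciliated cells, whose identity depends on transcription factors such as Nkx2-1, Foxa1 and Sox2.

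Peaks of this set at 4 promoters of epithelial genes are printed first, because their short length and their genes recur throughout the results. Each window has 200 bases centred on the summit, is read 5′ to 3′ on the gene's strand from the GRCm38.p6 (mm10) assembly of RefSeq, and has the bases of the deposited peak in capitals. Scgb1a1 encodes the main secreted protein of club cells, and its peak of 109 bp was centred 103 bp upstream of the start site (window chr19:9087960-9088159, minus strand). Sftpd encodes surfactant protein D (chr14:41184785-41184984, minus strand), Hopx a homeodomain protein of type I cells (chr5:77114740-77114939, minus strand), and Muc5b a gel-forming airway mucin (chr7:141839434-141839633, plus strand). Their peaks spanned 80, 89 and 80 bp.
Scgb1a1: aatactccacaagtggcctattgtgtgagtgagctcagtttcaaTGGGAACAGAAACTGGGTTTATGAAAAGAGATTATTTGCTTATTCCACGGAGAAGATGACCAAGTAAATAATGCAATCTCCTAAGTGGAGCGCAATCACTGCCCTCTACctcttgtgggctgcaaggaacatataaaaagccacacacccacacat
Sftpd: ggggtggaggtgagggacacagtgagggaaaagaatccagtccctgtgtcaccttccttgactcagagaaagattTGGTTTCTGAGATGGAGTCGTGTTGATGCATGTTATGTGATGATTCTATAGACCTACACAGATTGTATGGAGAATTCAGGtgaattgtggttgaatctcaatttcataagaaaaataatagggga
Hopx: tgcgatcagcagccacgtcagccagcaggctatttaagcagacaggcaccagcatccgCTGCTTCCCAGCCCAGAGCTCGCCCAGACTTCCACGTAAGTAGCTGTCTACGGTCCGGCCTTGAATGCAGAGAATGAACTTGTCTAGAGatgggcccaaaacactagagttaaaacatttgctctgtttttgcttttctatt
Muc5b: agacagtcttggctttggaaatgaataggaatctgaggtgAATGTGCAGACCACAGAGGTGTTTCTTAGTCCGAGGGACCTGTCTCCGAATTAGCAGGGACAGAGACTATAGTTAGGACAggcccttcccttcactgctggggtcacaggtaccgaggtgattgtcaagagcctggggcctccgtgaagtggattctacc

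The 3 windows that follow lie in strong peaks of this set at genes of lung epithelial transcription factors, and capitals mark motifs that were searched on both strands. The Foxp2 window (chr6:15187428-15187627, plus strand) held 1 forkhead motif, TGTTTAC. The Foxa1 window (chr12:57537685-57537884, minus strand) held 1 CEBP motif, TTGCNNAA. The Sox2 window (chr3:34663505-34663704, plus strand) held 1 KLF/SP motif, GGGCGG, and 1 CEBP motif. Foxp2 encodes a forkhead repressor of the airway epithelium, Foxa1 a forkhead factor that opens chromatin, and Sox2 a factor of the conducting airways.
Foxp2: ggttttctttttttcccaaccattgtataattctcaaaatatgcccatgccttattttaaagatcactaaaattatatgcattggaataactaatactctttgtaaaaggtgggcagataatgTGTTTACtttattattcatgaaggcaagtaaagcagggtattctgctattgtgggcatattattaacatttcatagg
Foxa1: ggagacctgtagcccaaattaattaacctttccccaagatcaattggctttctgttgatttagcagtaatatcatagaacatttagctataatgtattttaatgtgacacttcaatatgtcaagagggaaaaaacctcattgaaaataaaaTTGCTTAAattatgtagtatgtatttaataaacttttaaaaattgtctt
Sox2: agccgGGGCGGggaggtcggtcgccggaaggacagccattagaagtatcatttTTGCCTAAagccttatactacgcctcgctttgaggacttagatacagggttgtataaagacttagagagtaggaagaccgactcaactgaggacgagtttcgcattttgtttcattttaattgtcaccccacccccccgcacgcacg

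The identity of the sorted cells was read from promoters, taken as 1 kb to either side of a protein-coding start site. Of 30 AM core genes, 29 had a promoter peak in Cell Signaling replicate 1, against 29 for replicate 2 and 26 for Active Motif. These genes include Siglecf, Marco, Chil3, Car4 and Pparg, all of which had a promoter peak in every library. All 20 pan-macrophage genes had one in each library. A promoter peak of replicate 1 was common, at 10399 of all 21728 protein-coding genes. All 20 housekeeping and all 20 cell cycle genes had one, so it does not single out AM genes. Endothelial (3 of 17) and monocyte genes (5 of 12) had fewer, while airway secretory genes had 13 of 16. The defining AM genes were thus marked, but this does not by itself establish the AM label. The peaks that replicate 1 had alone were a separate, smaller layer covering 1.41 Mb, or 3.09% of the 45.8 Mb under all its peaks.

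Peaks of replicate 1 alone were short and weak. Their median width was 112 bp (quartiles 80 and 160 bp), against 402 bp (157 and 1288 bp) for the other 46160 peaks of the library. The overlap rule itself favours short peaks, because a longer peak meets a peak of another list more readily. The shortest width allowed in this list, 80 bp, was that of 30.4% (29.5 to 31.3%) of them and of 6.43% (6.21 to 6.66%) of the other peaks. Median fold enrichment over input was 4.23 (quartiles 3.58 and 4.61), against 6.53 (4.61 and 14.2) for the others, and the median −log10 q was 4.06, against 9.66. The 18477 peaks of replicate 2 alone had a median width of 169 bp, a median fold of 4.51 and a median −log10 q of 3.74. Fold values of the whole library came in steps. One step was 0.384 in replicate 1 and 0.183 in replicate 2, so a step was 2.10 times as large in replicate 1. Whether replicate 2 folds lay on whole multiples of their step was not counted, so the 2 steps need not be the same unit of pileup. In replicate 1, the folds of 76.0% of the peaks of the set lay on whole multiples of the step, within 0.02 of a step, as did those of 80.3% of the other peaks. The median peak of the set stood at 11 steps and that of the others at 17. Where MACS3 adds 1 to signal and background, 11 steps are a summit pileup of 10.

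The overlap rule did not separate strong from weak signal at its own edge. The 417 peaks that ended 1 to 20 bp from a peak of another list had a median width of 111 bp, a fold of 4.23 and a −log10 q of 4.06. The 539 peaks of replicate 1 that overlapped another list by 1 to 20 bp, and so were not in the set, had a median width of 107 bp with the same fold of 4.23 and the same −log10 q of 4.06.

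The share of peaks found in replicate 1 alone fell with strength. When the 56175 peaks were put into 10 equal groups by −log10 q, the share was 44.0% in the weakest group and 37.8%, 33.6%, 27.8%, 21.0%, 10.7%, 3.10% and 0.231% in the next 7. No peak of the strongest 2 groups, above a −log10 q of 36.6, belonged to the set.

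**Figure D1:**
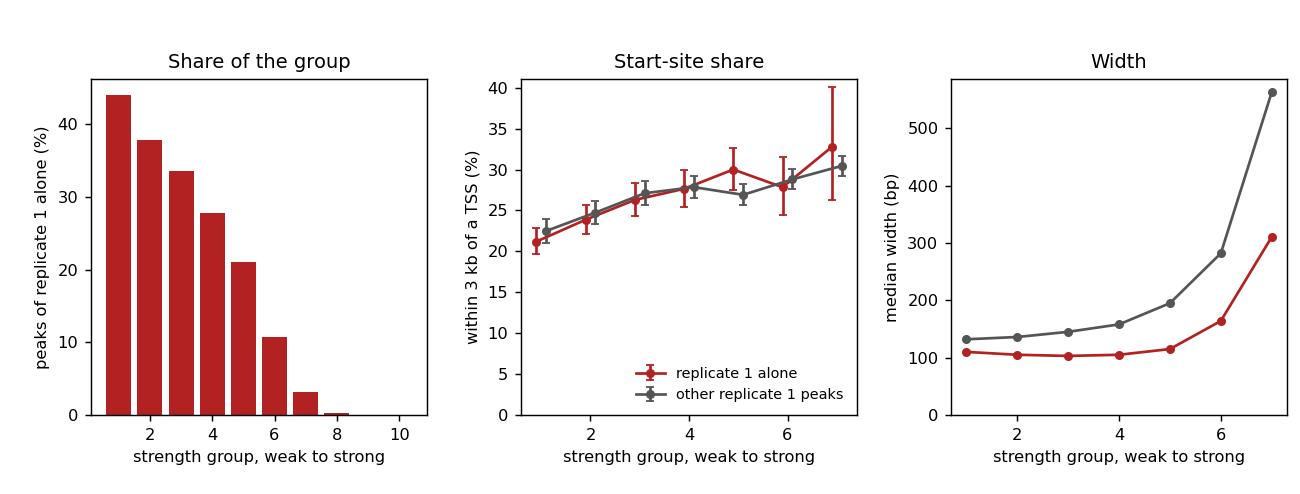
Left, share of replicate 1 peaks that were found in replicate 1 alone (%), in 10 equal groups of −log10 q. Middle and right, share within 3 kb of a TSS (%, bars are 95% Wilson intervals) and median width (bp) in groups 1 to 7, for replicate 1 alone (red) and other replicate 1 peaks (grey). The share alone goes down from 44.0% in group 1, and the start-site shares of both sets lie together. The peaks alone are narrower in each of these groups, which the overlap rule itself favours.

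Start sites were less often near these peaks than near the rest of the library. Within 3 kb of a protein-coding transcription start site (TSS) lay 25.4% (24.5 to 26.2%) of replicate 1 alone peaks and 34.5% (34.0 to 34.9%) of the other replicate 1 peaks. The gap was larger at 1 kb, with 10.4% (9.82 to 11.0%) against 25.4% (25 to 25.8%). It turned round between 1 and 3 kb, with 14.98% (14.3 to 15.7%) against 9.07% (8.81 to 9.33%). The median distance to a TSS was 14.99 kb, against 9.19 kb for the other peaks, and 12% (11.4 to 12.7%) against 6.95% (6.73 to 7.19%) were more than 100 kb away. By midpoint, 55.2% of replicate 1 alone peaks were intronic, 29.9% intergenic and 4.44% exonic outside the 1-kb start-site windows. Within strength groups, the 3-kb shares lay close together. In the weakest group 21.2% (19.6 to 22.8%) of the peaks alone and 22.5% (21.1 to 24.0%) of the other peaks were within 3 kb, and in group 4 the shares were 27.6% (25.5 to 29.9%) and 27.8% (26.5 to 29.2%). The 1-kb share stayed lower for the peaks alone in each of groups 1 to 7, with 7.84% against 10.5% for the others in group 1, 11.7% against 16.1% in group 4 and 12.8% against 18.9% in group 6. Width kept its difference in these groups, with medians of 110 bp for the peaks alone and 132 bp for the others in group 1, 105 and 158 bp in group 4, and 164 and 282 bp in group 6. The overlap rule favours narrow peaks at any strength, and how much of the difference it makes was not tested.

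The set held peaks beside a peak of another list, peaks far from any, and some in between. Within 1 kb of a peak of another list lay 5014 of the 10015 peaks (50.1%, 49.1 to 51.0%), and 3204 (32.0%, 31.1 to 32.9%) were more than 10 kb from any. The remaining 1797 (17.9%, 17.2 to 18.7%) were 1 to 10 kb away. For the 18477 peaks of replicate 2 alone, the shares were 51.0% within 1 kb and 16.2% (15.6 to 16.7%) beyond 10 kb. Beyond 100 kb the shares were smaller. Of the replicate 1 alone peaks, 12.47% (11.8 to 13.1%) were over 100 kb from any peak of another list, against 1.61% (1.44 to 1.80%) of the replicate 2 alone peaks. These distance limits were set after the distances had been seen. The flanking peaks sat beside start sites more often, with 32.1% (30.8 to 33.4%) within 3 kb of a TSS, against 20.5% (19.1 to 21.9%) of the peaks beyond 10 kb. Between 1 and 3 kb from a TSS lay 20.4% (19.3 to 21.6%) of the flanking and 9.24% (8.28 to 10.3%) of the distant peaks. Median width was 117 bp for the distant and 109 bp for the flanking peaks, while the median fold of both was 4.23. Widths above 300 bp were found for 8.61% (7.69 to 9.64%) of the distant and 2.71% (2.30 to 3.20%) of the flanking peaks. Of the 18 peaks wider than 1000 bp, 16 were distant, 1 was flanking and 1 lay in between.

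**Figure D2:**
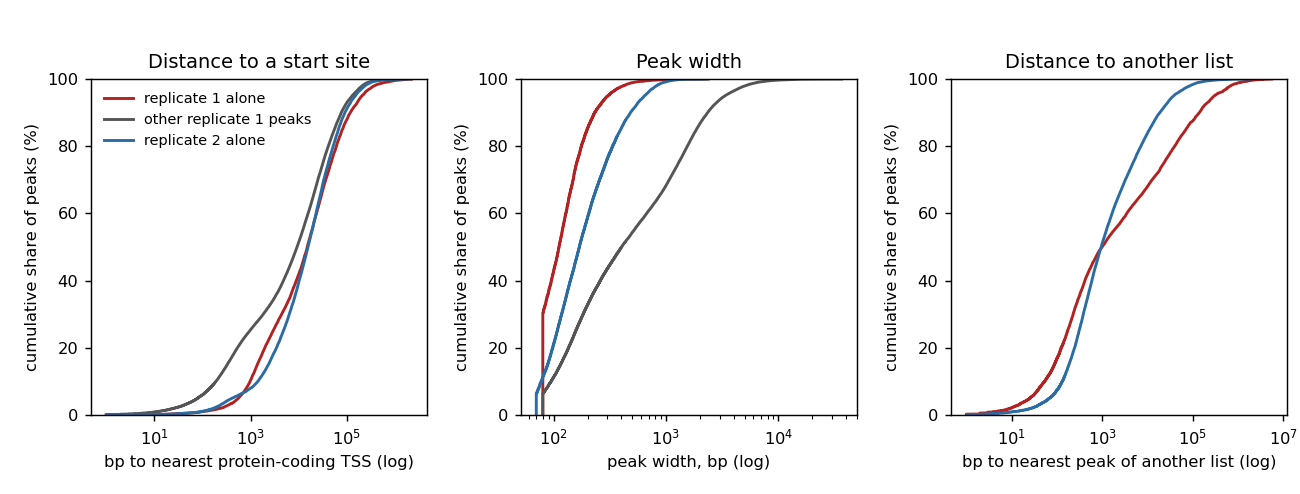
Cumulative share of peaks (%) by distance to the nearest protein-coding TSS, by width and by distance to the nearest peak of another list (all in bp, log axes), for replicate 1 alone (red), other replicate 1 peaks (grey) and replicate 2 alone (blue). The red curve starts at the 80-bp minimum with 30.4% of its peaks, and in the right panel it crosses the blue one near 1 kb and then stays below it.

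Part of the set lay in runs along the genome. A cluster was taken as 3 or more of these peaks with gaps no longer than the default stitching distance of the super-enhancer program ROSE, and 710 clusters held 3258 peaks, 32.5% (31.6 to 33.5%) of the set. Replicate 2 alone formed 1904 clusters with 49.9% (49.2 to 50.6%) of its peaks, and the other replicate 1 peaks 5266 clusters with 74.98% (74.6 to 75.4%). The largest cluster had 51 peaks in replicate 1 alone, 41 in replicate 2 alone and 68 among the other replicate 1 peaks. These sets hold 10015, 18477 and 46160 peaks. With a fixed gap a larger set forms clusters more readily, so the cluster shares were not matched for the number of peaks. In 336 of the 710 clusters (47.3%) no peak of replicate 2 or the Active Motif library lay between the first and the last peak, and these clusters held 1694 peaks. Clusters whose peaks were all more than 10 kb from both lists numbered 223 and held 1261 peaks. Among the 40 clusters of 10 or more peaks, 26 were free of the other lists, and so were 9 of the 10 largest. For each cluster the nearest protein-coding genes are given below.

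The largest cluster lay at Nr2f2, which encodes the nuclear receptor COUP-TFII (chr7:70324644-70372926). It held 51 peaks over 48.3 kb, covering 10889 bp, with folds up to 7.30 and a median of 5.0, and the nearest replicate 2 peak was 24.0 kb away. The second lay at Nkx2-1, the homeodomain factor required for lung development (chr12:56509369-56537793). Its 35 peaks over 28.4 kb had folds up to 8.84, and the nearest peak of replicate 2 was 163 kb away and that of the Active Motif library also 163 kb. At Foxa1, 19 peaks over 15.4 kb had folds up to 9.61, the widest being 2383 bp, and the nearest replicate 2 peak was 291 kb away. At Sox2, 21 peaks over 14.6 kb had folds up to 8.84, and the nearest replicate 2 peak was 570 kb away. These 4 loci encode transcription factors, and no other peak of replicate 1 lay within any of the 4 clusters.

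Rad51b, a recombination-repair gene and a neighbour of Zfp36l1, had 2 of the 10 largest clusters. They held 27 peaks with folds up to 5.38 and 21 peaks with folds up to 6.92. A cluster of 23 peaks over 44.0 kb crossed the homeobox genes Hoxb2, Hoxb3 and Hoxb4, with a maximal fold of 7.30 and the nearest replicate 2 peak 233 kb away. The homeobox gene Otx1 had 18 peaks with folds up to 8.07, and 18 peaks with folds up to 6.92 lay nearest to the predicted gene Gm10309. The remaining cluster of the 10 differed from these. It lay on chromosome 18 at E230025N22Rik, Cd14 and Tmco6, among 10 peaks of replicate 2, 11 of the Active Motif library and 7 other peaks of replicate 1. Cd14 encodes a lipopolysaccharide co-receptor of macrophages, and none of the 18 peaks of this cluster was more than 10 kb from another list.

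**Figure D3:**
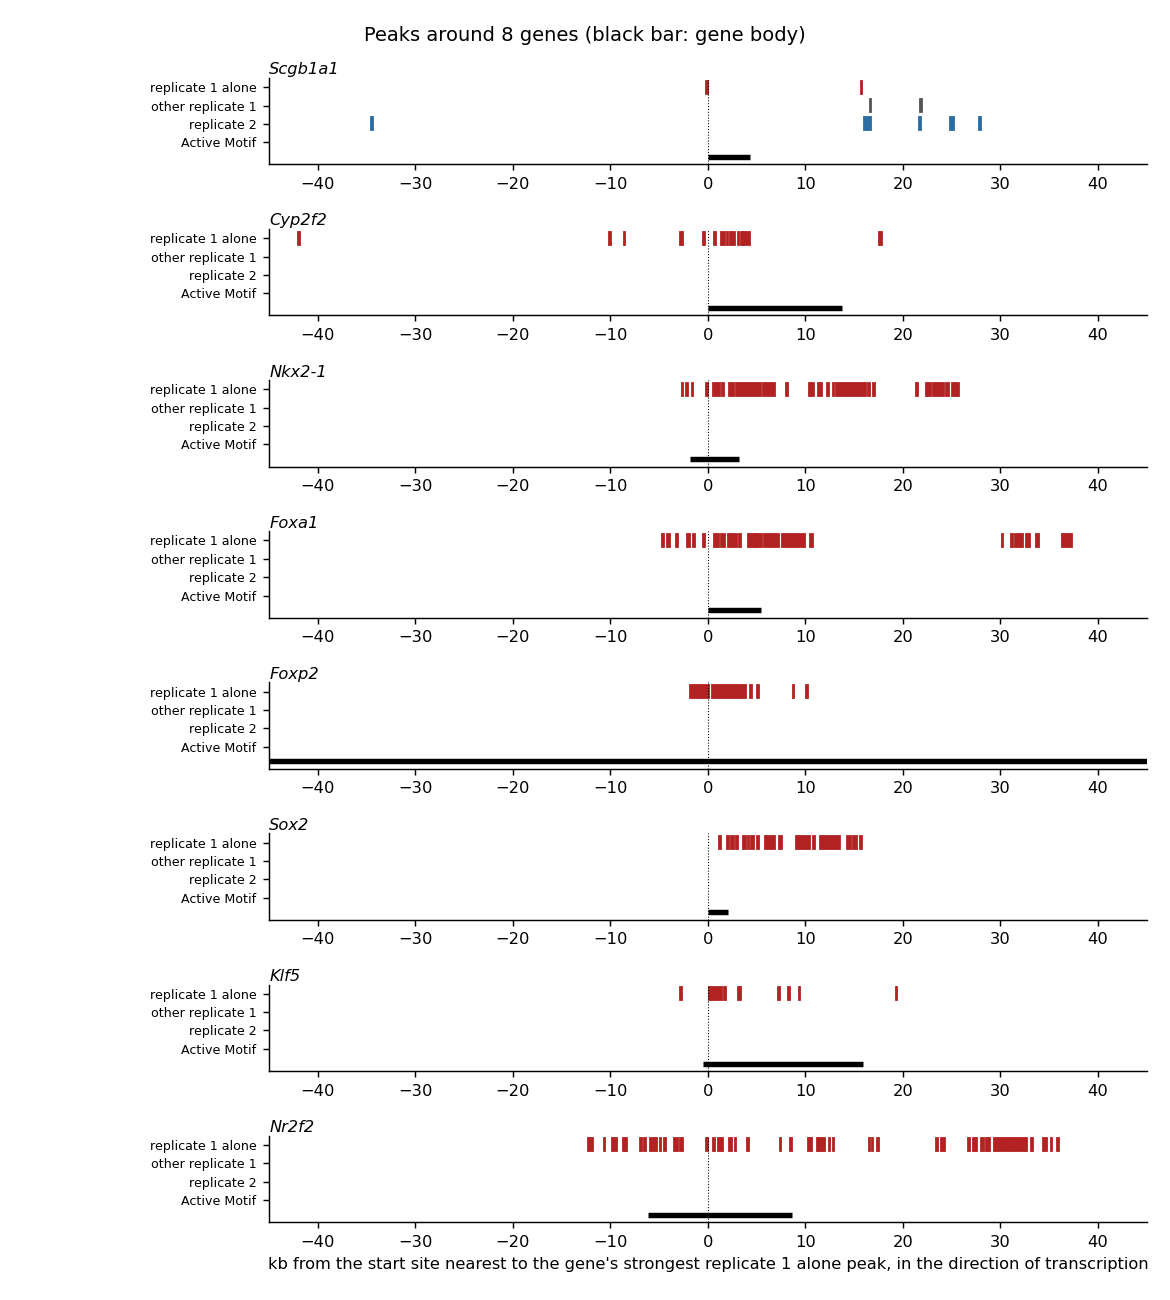
Peaks within 45 kb of 8 genes, by distance (kb) from the start site nearest to the gene's strongest peak of the set, with replicate 1 alone (red), other replicate 1 peaks (grey), replicate 2 (blue) and Active Motif (green) on separate rows and the gene body as a black bar. Peaks are drawn to scale but no narrower than 180 bp. Around Cyp2f2, Nkx2-1, Foxa1, Foxp2, Sox2, Klf5 and Nr2f2 only the red row is filled, and around Scgb1a1 the blue and grey peaks begin 16 kb or more from the promoter peak.

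By nearest gene, these peaks fell on 4789 of 21728 protein-coding genes (22.0%), with a mean of 0.461 per gene. Replicate 2 alone fell on 28.9% of the genes with a mean of 0.850. The 10 genes nearest to most replicate 1 alone peaks were Rad51b (61), Nr2f2 (53), Klf5 (36), Nkx2-1 (35), Foxa1 (30), Zfp36l1 (29), Runx1 (27), Mipol1 (26), Sox2 (25) and Zfp608 (22). Klf5 encodes a zinc finger factor of epithelia, Zfp36l1 a protein that promotes mRNA decay, and Runx1 a regulator of blood cells. Klf5, Nkx2-1, Foxa1 and Sox2 were nearest to no other peak of replicate 1 and to none of replicate 2 alone. Runx1 was the opposite case, with none of its 27 peaks more than 10 kb from another list, 65 other replicate 1 peaks and 32 peaks of replicate 2 alone. Zfp608 resembled Runx1, with 60 other replicate 1 peaks and 19 of replicate 2 alone. Mipol1, a neighbour of Foxa1, had 24 of its 26 peaks beyond 10 kb. The leading genes of replicate 2 alone were Zeb2 (54), Dock10 (53), Klhl25 (51), Tcf7l2 (51), Frmd4a (38), Pag1 (37), Bcar3 (36), Pparg (36), Tns1 (35) and Cd44 (33). Each of these was also nearest to between 21 and 90 other peaks of replicate 1 and to 2 to 8 peaks of replicate 1 alone. Pparg encodes the nuclear receptor that directs AM differentiation.

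Some genes had many peaks of this set and were nearest to no other replicate 1 peak, though most did have one. The share of all genes nearest to no other replicate 1 peak was not counted. At least 5 replicate 1 alone peaks were nearest to 398 genes, and 77 of these were nearest to no other replicate 1 peak. At least 10 were nearest to 79 genes, of which 20 had no other replicate 1 peak. Besides the genes already named, these 20 included Mecom (19), Otx1 (19), Ehf (16), Lmo7 (15), Cyp2f2 (14), Parva (14), F3 (13), Colca2 (13), Hoxb3 (13) and Foxp2 (11). Mecom encodes a zinc finger factor, Ehf an ETS factor of epithelia, and F3 tissue factor, the initiator of coagulation. Of 1038 genes nearest to at least 5 peaks of replicate 2 alone, 11 had no peak of replicate 2 that overlapped another list.

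At promoters, 986 of 21728 protein-coding genes (4.54%) had a replicate 1 alone peak and 1385 (6.37%) had a replicate 2 alone peak. For 696 of the 986 genes the same promoter window also held a peak of replicate 2 or the Active Motif library, and for 290 genes (1.33%) it did not. The genes were then read by lineage, with 24 lists of 4 to 30 marker genes. All 353 protein-coding members of the lists were found in the annotation. The lists were drawn up with results of these data known, so their counts are a description.

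Airway secretory genes stood highest. A replicate 1 alone peak was present at the promoter of 13 of 16 (81.3%), against 4.54% of all genes, and a replicate 2 alone peak at 0. No peak of replicate 2 or of the Active Motif library lay in any of these 16 promoter windows. The strongest peak per gene had a fold between 3.46 at Agr2 and 8.07 at Scgb3a2. Between these stood the antimicrobial secreted protein Bpifa1 (7.30), the Ly6 family member Lypd2 (6.92), the secretoglobins Scgb1a1 (6.53) and Scgb3a1 (6.53), the carbonyl reductase Cbr2 (6.53) and the antimicrobial lectin Reg3g (6.15). Muc5b (5.0), Cyp2f2 (4.61), Chad (4.61), the retinal dehydrogenase Aldh1a1 (4.23) and the goblet cell factor Spdef (4.23) were lower. Cyp2f2, a cytochrome P450 of club cells, was nearest to 14 peaks of the set and to no other peak of replicate 1 or of replicate 2 alone. The promoters of Bpifb1, Muc5ac and Gabrp had none. At Reg3g, 3 peaks lay in the promoter window, the nearest replicate 2 peak being 3454 kb away. Cbr2 differed, with its promoter peak 1.13 kb from a replicate 2 peak and 2 other replicate 1 peaks in the same window. None of the 8 peaks of the set nearest to Cbr2 was more than 10 kb from another list. Altogether 62 peaks of the set were nearest to these 16 genes, 51 of them more than 10 kb from any other list, against 2 peaks of replicate 2 alone.

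Lung epithelial transcription factors came next. Of 16 genes, 7 (43.8%) had a replicate 1 alone peak at the promoter and 1 (Grhl1) a replicate 2 alone peak. Nkx2-1 had 6 promoter peaks with folds up to 6.92, and Foxp2 had 5 with folds up to 11.0. Ehf and Foxa1 had 3 each, up to 8.07 and 5.38, Klf5 had 2, up to 6.15, and Grhl2, a regulator of epithelial junctions, had 1 of 3.46. Peaks nearest to the 16 genes numbered 178, a mean of 11.1 per gene against 0.461 over all genes, and 175 of them were more than 10 kb from any other list. The median was 5 per gene. The mean was raised by runs of neighbouring peaks at Klf5 (36), Nkx2-1 (35), Foxa1 (30) and Sox2 (25). Replicate 2 alone had 5 peaks nearest to these genes, a mean of 0.313 against 0.850. Sox2 (25), Irx2 (9), Elf3 (3), Grhl1 (2) and Foxa2 (1) had such peaks only outside the 1-kb promoter window, and Sox9, Gata6, Elf5 and Tfcp2l1 had none nearest to them.

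Genes shared by most epithelia and those of the alveolar epithelium were marked in part. Of 19 pan-epithelial genes, 6 (31.6%) had a replicate 1 alone peak at the promoter and 0 a replicate 2 alone peak. They included Prss8 (fold 5.77), Krt7 (4.74), Esrp2 (4.61), St14 (3.84) and Rab25 (3.22), which encode 2 membrane-linked proteases (Prss8 and St14), a keratin, a splicing factor and a small GTPase. The peaks at Esrp2, Prss8 and Rab25 lay 0.150 to 5.09 kb from a replicate 2 peak, and those at Krt7 and St14 more than 10 kb away. Of 14 type II genes, Sftpd (4.23) and the lysophospholipid acyltransferase Lpcat1 (4.23) had a replicate 1 alone peak at the promoter and Etv5 a replicate 2 alone peak. Sftpb had 4 peaks nearest to it but none at the promoter, and Sftpc, Sftpa1, Lamp3 and Slc34a2 had no peak of the set at all. Of 12 type I genes, Hopx (5.77) and the water channel Aqp5 (5.0) had a replicate 1 alone promoter peak and Pdpn a replicate 2 alone peak. Clic5 had 5 distant peaks, and Ager, the receptor gene often used to mark type I cells, had none. Of 14 ciliated cell genes, Sec14l3 (3 peaks, up to 6.53) and Tppp3 (4.61) were marked, while the ciliogenesis regulators Foxj1 and Mcidas had no peak of the set nearest to them.

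Across the 6 epithelial lists, 32 of 91 genes (35.2%) had a replicate 1 alone peak at the promoter and 3 (3.30%) a replicate 2 alone peak, against 4.54% and 6.37% of all genes. For 30 of the 32 no replicate 2 or Active Motif peak lay in the promoter window, the exceptions being Tppp3 and Esrp2. Of the 308 peaks nearest to these genes, 270 (87.7%) were over 10 kb from any other list, against 32.0% of the whole set. The remaining 59 genes had no promoter peak of the set, and 40 of the 91 were nearest to none of its peaks.

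**Figure D4:**
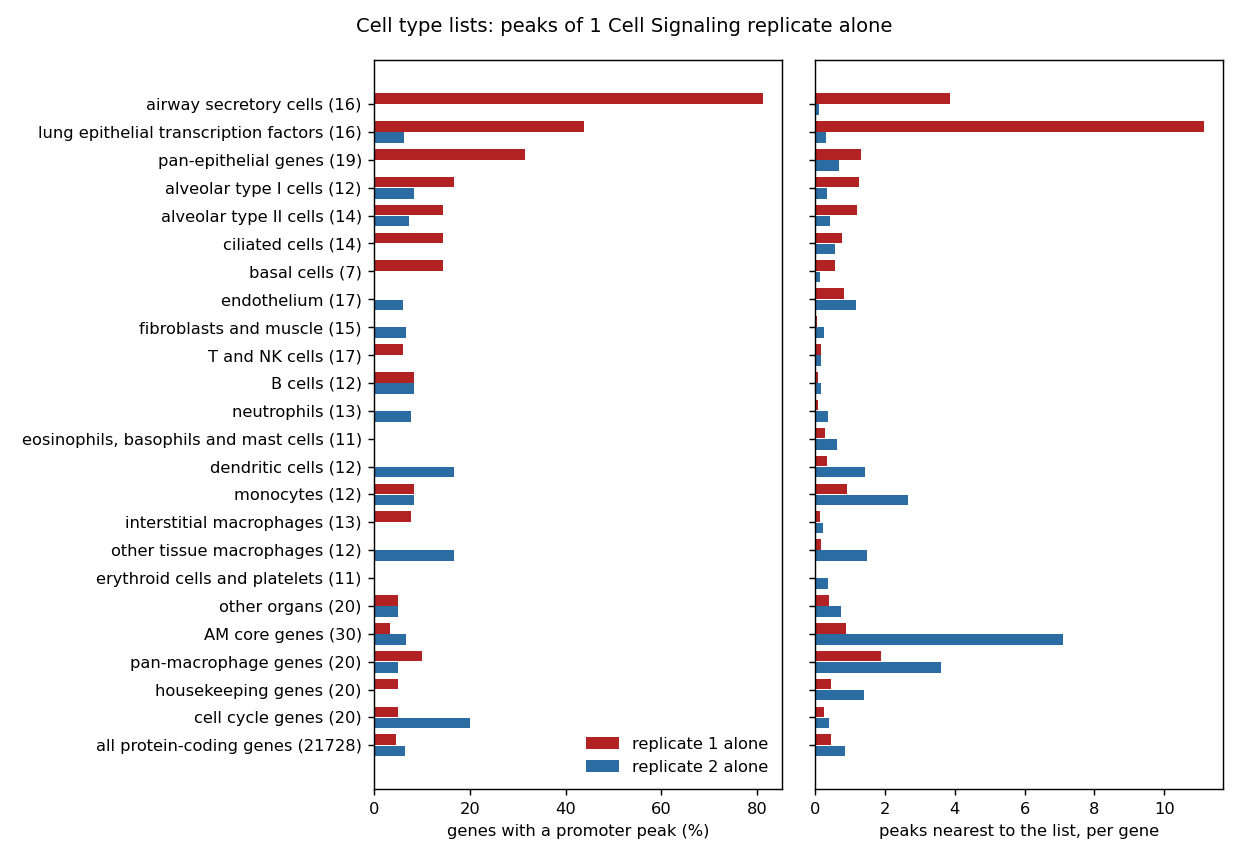
Share of genes with a promoter peak (%, left) and peaks nearest to the list per gene (right) in 23 cell type lists and over all protein-coding genes, for replicate 1 alone (red) and replicate 2 alone (blue), with the number of genes in parentheses. Red reaches 81.3% in airway secretory cells and 11.1 peaks per gene in lung epithelial transcription factors. Blue reaches 7.10 peaks per gene in AM core genes.

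AM core and pan-macrophage genes also had peaks of the set nearest to them. AM core genes had 27, a mean of 0.900 per gene against 0.461 over all genes, and none of the 27 was more than 10 kb from another list. Replicate 2 alone had 213 such peaks, a mean of 7.10 against 0.850 over all genes. One AM core gene, Cdh1, which encodes E-cadherin, had a replicate 1 alone peak at the promoter (fold 4.23, 80 bp), 0.101 kb from a replicate 2 peak. Pan-macrophage genes had 38 nearest peaks of replicate 1 alone, 1 of them beyond 10 kb, and 72 of replicate 2 alone. The 38 were a mean of 1.90 per gene against 0.461 over all genes, above the 1.32 of pan-epithelial, 1.25 of type I, 1.21 of type II and 0.786 of ciliated cell genes. Replicate 1 alone had promoter peaks at 2 of the 20 genes (10%, against 4.54% of all genes), the scavenger receptor gene Cd36 (3.91) and Pld3 (4.23), and replicate 2 alone at 1. Monocyte genes had 11 nearest peaks, 3 of them beyond 10 kb, against 32 of replicate 2 alone, and S100a4 (4.18) was the 1 of 12 with a replicate 1 alone promoter peak, while replicate 2 alone also marked 1. Interstitial macrophage genes had 2, both beyond 10 kb, against 3 of replicate 2 alone, with Tmem176a (5.38) as the 1 of 13 marked at the promoter in replicate 1 alone and 0 in replicate 2 alone. The lists of other tissue macrophages and dendritic cells had no replicate 1 alone promoter peak among 12 genes each, and 2 genes each with a replicate 2 alone peak.

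Lists of other lung and blood cells had at most 1 gene with a replicate 1 alone promoter peak. No promoter of 17 endothelial, 15 fibroblast and muscle, 13 neutrophil, 11 eosinophil, basophil and mast cell, or 11 erythroid and platelet genes held a replicate 1 alone peak. The share over all genes was 4.54%, and lists this small cannot tell 0 genes or 1 gene from it. Endothelial genes had 14 nearest peaks of the set, 0.824 per gene against 0.461 over all genes, and 3 were beyond 10 kb. The other lists of this group had 0 to 0.273 per gene. Among 17 T and NK cell genes the only one was Il7r (fold 2.99), the interleukin 7 receptor, and among 12 B cell genes Vpreb3 (5.0). Of 7 basal cell genes, which were not counted in the 6 epithelial lists, Krt15 had one (3.46). This is 14.3%, the share also found for ciliated and type II cell genes. Of 20 genes of other organs Tg, which encodes thyroglobulin, had one (5.0). Its promoter windows also held 3 peaks of replicate 2, and the peak of the set lay 0.031 kb from a replicate 2 peak. Sdha (5.38), which encodes a subunit of succinate dehydrogenase, was the 1 of 20 housekeeping genes, and Top2a (3.46), which encodes a topoisomerase, was the 1 of 20 cell cycle genes. These peaks lay 0.175 kb (Sdha) and 0.066 kb (Top2a) from a replicate 2 peak, and those at Krt15, Il7r and Vpreb3 3.05 to 7.05 kb. The 4 noncoding genes of X inactivation had no peak of the set at their promoters. Most peaks of the set nearest to airway secretory genes (51 of 62) and lung epithelial transcription factors (175 of 178) were more than 10 kb from another list. Of all 3204 peaks beyond that distance, however, only 270 were nearest to genes of the 6 epithelial lists. Large clusters beyond it at Nr2f2, Rad51b, Hoxb3, Otx1 and Gm10309 lay at genes of none of the lists. Whether other cells were present in the sorted fraction was not tested.

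The 15 peaks of highest −log10 q were of 2 kinds. A total of 5 had folds of 9.23 or more: Foxp2 (fold 11.0, −log10 q 23.7, 1460 bp wide and 532 kb from the nearest replicate 2 peak), 2 peaks at Foxa1 (9.61 and 9.23), and peaks nearest to Setd4 (9.61) and Rnf186 (9.23). The peak nearest to Setd4 was 69.0 kb from its start site, and that nearest to Rnf186 was 1.71 kb from a replicate 2 peak. The others paired a high −log10 q with a lower fold. The top peak lay nearest to Limd1, an adaptor protein gene (342 bp, fold 5.04, −log10 q 32.6). The next were nearest to Ccdc3 (91 bp, fold 6.73, −log10 q 32.2) and Igf2bp3 (101 bp, 4.51, 29.0). A pair of peaks nearest to the predicted gene Gm10800 had folds of 2.46 and 2.07 with −log10 q of 23.6 and 20.6, and 83.6% and 100% of their bases were soft-masked as repeats. Kpna1 (91 bp, 3.47, 21.6), Il31ra (99 bp, 4.85, 19.8) and Gphn (91 bp, 7.93, 19.6) followed. A pair of peaks assigned to Esp38, whose start site was over 103 kb away, had folds of 3.55 and 2.88 and overlapped Rn18s-rs5, an 18S RNA-related pseudogene in RefSeq (chr17:39846354-39848202), as did 2 peaks of replicate 2. A total of 10 peaks of the set combined a fold below 5.5 with a −log10 q of 12 or more, and 62 reached that −log10 q with a higher fold.

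The windows at the Limd1 peak (chr9:123461912-123462111, plus strand) and the Kpna1 peak (chr16:35981642-35981841, plus strand) are shown because they share sequence although they lie on different chromosomes. Both midpoints lay in exons, counted for genes of any type. They were 16.7 kb upstream of the nearest start site of Limd1 and 1.57 kb upstream of that of Kpna1. Capitals mark the bases in 25-mers that the windows have in common, counting both strands. They formed 1 run of 77 bases in each, on opposite strands. Neither peak shared a 25-mer with Rn18s-rs5 or with the mitochondrial genome. Other ribosomal RNA sequence was not compared, and the shared run was not identified.
Limd1: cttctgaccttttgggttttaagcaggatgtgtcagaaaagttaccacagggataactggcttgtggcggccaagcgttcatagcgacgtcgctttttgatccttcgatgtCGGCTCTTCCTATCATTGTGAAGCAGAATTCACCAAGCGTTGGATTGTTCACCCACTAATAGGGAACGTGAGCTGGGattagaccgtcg
Kpna1: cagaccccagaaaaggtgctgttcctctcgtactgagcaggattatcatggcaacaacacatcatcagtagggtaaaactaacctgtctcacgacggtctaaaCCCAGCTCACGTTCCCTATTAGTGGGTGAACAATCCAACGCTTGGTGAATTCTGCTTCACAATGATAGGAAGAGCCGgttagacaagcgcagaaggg

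Sequence was compared in 200-bp windows at the summits, apart for distal peaks (over 3 kb from a TSS) and proximal ones. Distal windows of replicate 1 alone had a mean GC content of 43.5% ± 7.24 (SD, n = 7473 windows), against 44.5% ± 6.82 for other replicate 1 peaks (n = 30252). Proximal windows differed more, with 45.3% ± 8.87 against 52.8% ± 10.5 and with 1.67 against 4.35 CpG dinucleotides per 100 bp. Proximal windows of replicate 2 alone stood between these, with 49.4% ± 10.9 and 2.73 CpG per 100 bp. Of the 2542 proximal peaks of the set 1500 lay 1 to 3 kb from a TSS, against 4185 of 15908 for the others. The proximal sets were therefore not matched in position. Among proximal windows of the set, those beyond 10 kb of another list had 2.22 CpG per 100 bp, and those within 1 kb had 1.48. At least 50% of the bases were soft-masked in 12.3% (11.6 to 13.05%) of the distal windows, against 11.4% (11.1 to 11.8%) of the other replicate 1 windows.

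Of the 13 motifs searched, 1 had intervals that did not overlap between the distant distal windows of replicate 1 alone and replicate 2 alone. It was the PU.1-type ETS motif GAGGAAGT, bound by the factor that specifies macrophages, which was found in 2.12% (1.63 to 2.75%) of distal windows more than 10 kb from other lists in replicate 1 alone. The share was 4.86% (4.08 to 5.78%) in the corresponding windows of replicate 2 alone and 3.89% (3.68 to 4.11%) in all other distal replicate 1 peaks. In other replicate 1 peaks of strength groups 1 to 6 it was 2.94% (2.70 to 3.20%). This interval overlapped that of the distant windows of replicate 1 alone. The distant peaks of the 2 replicates were not matched in strength or width. A −log10 q of at least 5 was reached by 27.1% of those of replicate 1 alone and 42.7% of those of replicate 2 alone. Their median widths were 117 and 203 bp. Over all distal windows the PU.1-type shares were 2.19% (1.89 to 2.55%) in replicate 1 alone and 2.57% (2.33 to 2.84%) in replicate 2 alone, and within 1 kb of other lists they were 2.38% (1.92 to 2.95%) and 1.48% (1.22 to 1.78%). The forkhead motif TGTTTAC ran the other way, with 4.36% (3.63 to 5.22%) in replicate 1 alone, 3.58% (2.91 to 4.38%) in replicate 2 alone and 3.20% (3.01 to 3.41%) in the other replicate 1 peaks, and its interval overlapped that of replicate 2 alone. Shares of the NKX2 motif TCAAGTG were 3.14% (2.53 to 3.89%), 3.05% (2.45 to 3.81%) and 2.85% (2.67 to 3.04%), and those of the TEAD motif GGAATG 10.6%, 10.6% and 10.1%, so no difference was detectable for these. The KLF/SP motif GGGCGG was found in 5.63% (4.79 to 6.59%) of proximal windows of replicate 1 alone and in 22.7% (22.1 to 23.4%) of those of the other peaks. In proximal windows of replicate 2 alone the share was 11.7% (10.7 to 12.9%), and these sets were not matched in distance to a TSS.

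**Figure D5:**
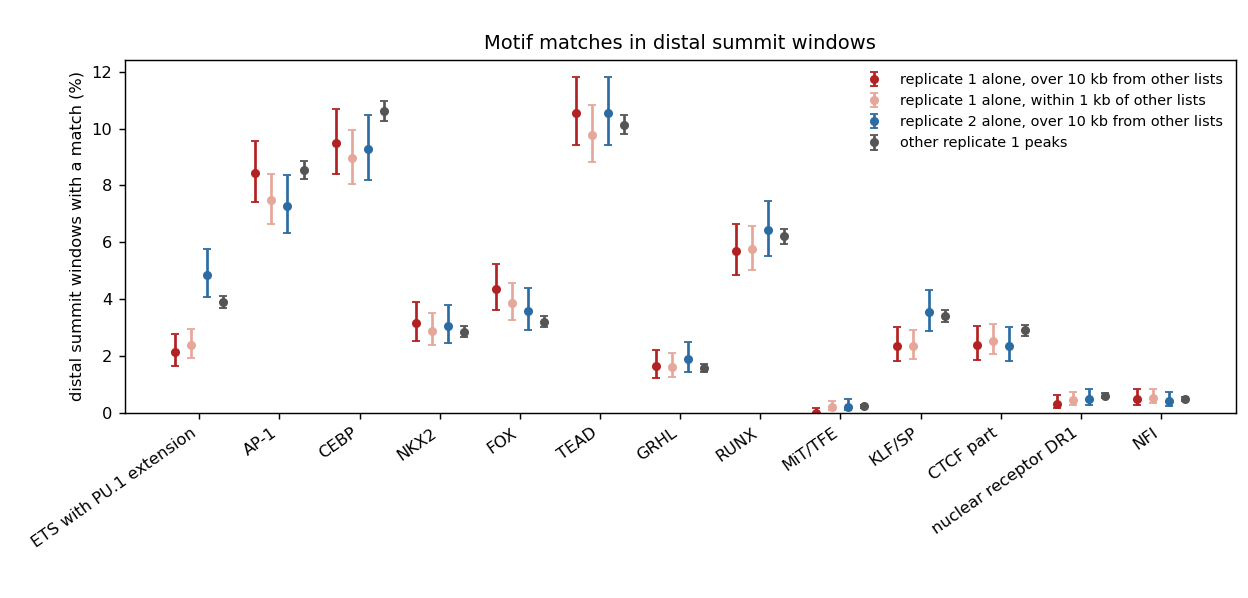
Share of distal 200-bp summit windows with a match to each of 13 motifs (%, bars are 95% Wilson intervals), for replicate 1 alone beyond 10 kb (red) and within 1 kb (pink) of a peak of another list, replicate 2 alone beyond 10 kb (blue) and other replicate 1 peaks (grey). The PU.1-type motif is at 2.12% in red and 4.86% in blue, and the intervals of the other 12 motifs overlap between red and blue.

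Along the genome, the share of replicate 1 peaks found alone was between 15.3% (chromosome 19) and 22.2% (chromosome 18) on the autosomes. It was lowest on chromosome X, at 8.53% (7.11 to 10.2%, 107 peaks). In replicate 2 the share found alone was 40.2% on chromosome X and 34.5 to 40.6% on the autosomes. Chromosome 12, which carries the Nkx2-1, Foxa1, Mipol1, Rad51b and Zfp36l1 loci, had 21.4% (19.9 to 23.1%).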

How the data were processed

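H3K27ac HT-ChIPmentation of AMs was read from 3 deposited peak lists (mm10). Per the submitters' processing notes, reads were processed with bcl2fastq 2.20.0.422, cutadapt, Bowtie2, SAMtools and MACS3. The authors' MACS3 lists give a score, a fold enrichment ratio over input, −log10 p and −log10 q values and a summit offset for each peak, and each list was called on 1 library. Columns were used as deposited, and the number of reads is not given in the lists.

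Peaks sharing 1 bp were taken as shared. Distances ran from peak midpoints to the 41249 start sites of protein-coding genes in GENCODE vM21 (basic set). Promoters were 1 kb to either side of a start site, and clusters were at least 3 peaks with gaps up to the default stitching distance of ROSE, which lies between the 5 and 25 kb also tried. Sequences and masking came from RefSeq GRCm38.p6. Python 3.11.15, numpy 2.4.6, pandas 2.3.3, scipy 1.17.1, matplotlib 3.10.9 and pysam were used, and the functions were tested on simulated intervals. No group test was possible with 1 library per set. The peaks, gene lists and comparisons were chosen with earlier results of these data known. Named genes were those of the 6 epithelial lists with a promoter peak of the set, up to 4 genes with the strongest such peak of each other list, the nearest genes of the 15 strongest peaks and of the 10 largest clusters, and the 10 genes nearest to most peaks, while other genes were named after their values were seen. Some genes that the rule names are not reported here. Alternatives were another partner distance, a −log10 q of at least 5, each other list left out, equal numbers of peaks, 50% reciprocal overlap, and other distance limits for start sites, clusters and promoters.

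Motifs were searched on both strands in the summit windows, by the letters GAGGAAGT (PU.1-type ETS), TGANTCA (AP-1), TTGCNNAA (CEBP), TCAAGTG (NKX2), TGTTTAC (forkhead), GGAATG (TEAD), AACNGGTT (GRHL), TGTGGTT (RUNX), TCACGTGA (MiT/TFE), GGGCGG (KLF/SP) and CCANNAGGG (part of the CTCF motif), besides the nuclear receptor DR1 and NFI motifs, and a match is a description of the letters only.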

Additional observations from a re-analysis of the deposited data

How the results depend on the processing

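The count of 32 epithelial genes with a promoter peak kept within 1.5 times of itself in 7 of 8 alternatives and was 20 with peaks of −log10 q of at least 5 in every list. With a partner within 1 kb counted as shared, 5001 peaks, 18.7% near a TSS, a median width of 115 bp, 35.2% in clusters and 327 promoter genes were left. With the −log10 q limit the values were 3511 peaks, 147 bp, 19.7% in clusters and 392 genes. With as many replicate 1 as replicate 2 peaks, 26.98% were near a TSS and 27.2% in clusters. Leaving out 1 other list at a time gave 10047 to 34673 peaks, 25.2 to 25.4% near a TSS, 112 to 152 bp, 32.7 to 65.0% in clusters, 989 to 3824 promoter genes and 32 to 39 epithelial genes, the higher counts, width and cluster share all without Cell Signaling replicate 2. A 50% reciprocal overlap left 34963 peaks. The start-site share was 10.4% at 1 kb, 42.0% at 10 kb and 32.9% with every biotype. Clusters held 23.3% at a 5-kb gap and 42.0% at 25 kb. Promoters of 500 bp and 3 kb gave 463 and 2074 genes. Restricting the set to the 3204 peaks over 10 kb from another list, chosen after the data were seen, gave 20.5% near a TSS, 117 bp, 41.0% in clusters and 244 genes, and 26 epithelial genes. The causes of these shifts were not tested beyond each setting's own construction. No paired analysis was possible because each set comes from 1 library. The lists hold only called peaks, so a missing peak does not show that the signal is absent, and at a pileup of about 10 a call could turn on few reads.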
